A study of Homo sapiens with 6 samples.

Results

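YAP1 and its paralog WWTR1 (the gene of TAZ), together with TEAD1, TEAD4, LATS1, LATS2, AMOTL2, ANKRD1, CTGF and CYR61, were examined in PC-9 cells after RBM10 knockdown. The genes were taken by name from a table of RefSeq isoforms, and these 10 genes, with 26 isoforms, were measured among 26334 gene symbols and 51398 isoforms. YAP1 alone had 9 isoforms. PC-9 is an established human lung adenocarcinoma line driven by mutant EGFR. RNA was sequenced from untreated cells grown in RPMI with serum that carried either a scrambled control shRNA (shScr) or 1 of a pair of shRNAs against the splicing factor RBM10 (shRBM10#1 and shRBM10#2). Each condition had 2 libraries, 6 in all. The control libraries are labelled shScr, whereas the methods of the study speak of parental cells, and the label was followed. No EGFR inhibitor was given in any group, and an shRNA lowers rather than removes its target.

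YAP1 and TAZ are transcriptional coactivators that do not bind DNA themselves. In the nucleus they bind TEAD transcription factors and turn on genes of growth and cell adhesion, and when the Hippo kinases LATS1 and LATS2 phosphorylate them they are held in the cytoplasm or degraded. Angiomotin family proteins such as AMOTL2 bind YAP1 in the cytoplasm, and AMOTL2, ANKRD1, CTGF and CYR61 are widely used target genes whose mRNA is read as YAP/TAZ output. In EGFR-mutant lung cancer, YAP1 is known for supporting the survival of cells under EGFR inhibition. Since phosphorylation and location of the proteins set this pathway, mRNA levels show only part of it.

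The YAP1 isoforms in the tables differ mainly in 3 coding segments, which are shown because each isoform is named below by the segments it holds. YAP1 lies on the plus strand of chromosome 11 from 102110461 to 102233423 (GRCh38, GENCODE 29). The segments were found by comparing exons of its transcripts, and the letters printed are the whole segment, read 5′ to 3′.
YAP1 exon with the second WW domain, chr11:102186018-102186131, 114 nt: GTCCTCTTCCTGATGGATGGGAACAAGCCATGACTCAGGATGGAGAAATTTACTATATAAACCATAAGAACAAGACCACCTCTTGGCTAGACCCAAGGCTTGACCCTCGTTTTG
YAP1 extension of exon 5, chr11:102206075-102206086, 12 nt: GTGAGGCCACAG
YAP1 exon 6, chr11:102209517-102209564, 48 nt: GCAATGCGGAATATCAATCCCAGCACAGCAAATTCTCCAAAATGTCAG
The WW domain is the part of YAP1 that binds proline-rich partners such as LATS kinases and angiomotins, and isoforms with a single WW domain lack the first of these segments. Each segment is a whole number of codons (38, 4 and 16), so the reading frame is kept with or without it.

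CTGF and ANKRD1 are shown with their upstream DNA because their promoter windows held the most copies of GGAATG, the core of the element that TEAD factors bind. The motif was searched on both strands (GGAATG or CATTCC) in the 250 bases before and 50 bases after each start site in RefSeq (GRCh38.p14). Windows were found for 7 of the 10 genes, and CYR61, TEAD1 and TEAD4 were not matched. Capitals mark the motif in the sequences, each read 5′ to 3′ on the minus strand.
CTGF, chr6:131951450-131951553: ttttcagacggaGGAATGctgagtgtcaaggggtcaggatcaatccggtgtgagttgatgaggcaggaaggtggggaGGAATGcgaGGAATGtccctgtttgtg
ANKRD1, chr10:90921198-90921319: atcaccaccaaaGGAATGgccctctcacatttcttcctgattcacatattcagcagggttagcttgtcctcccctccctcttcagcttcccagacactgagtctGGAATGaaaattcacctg
Positions count bases from the start site and give the first base of a copy. The CTGF window held 3 copies, at −169, −104 and −95, and the ANKRD1 window held 2, at −220 and −128. Single copies stood at −162 in the YAP1 window, at −69 in 1 of the 2 AMOTL2 windows and at 10 in the LATS2 window. The windows of WWTR1 and LATS1 held none. Of 35116 promoter windows of the same length, 14.0% held at least 1 copy, 1.37% at least 2 and 0.128% at least 3. A match describes the letters of the window and not binding.

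RBM10 was lower in each knockdown library than in both control libraries, and further down with shRBM10#2 than with shRBM10#1. Its CPM, gene counts relative to the library size after TMM scaling, was 83.2 and 86.2 with shScr, 59.8 and 56.4 under shRBM10#1 and 27.2 and 26.9 under shRBM10#2. This left 0.686 and 0.319 of the control level (FDR = 2.28e-04 and 5.10e-08, Benjamini-Hochberg adjusted, edgeR quasi-likelihood F test). Libraries held 31953729 to 37557507 expected counts. Fragments, as judged from the effective lengths, averaged 231 nt in shScr replicate 2 against 265 to 281 nt elsewhere. Epithelial keratins were among the high transcripts, with KRT8 between 8355 and 10597 TPM, whereas the lung lineage factor NKX2-1 stayed at or below 0.39 TPM. The 6 fibroblast markers summed to 2.93 to 2.96 TPM with shScr, 2.36 to 2.91 with shRBM10#1 and 2.02 to 2.33 with shRBM10#2, and 5 of them were under 1 TPM in all libraries. The 4 leukocyte markers summed to 100.03 to 117 TPM with shScr, 80.7 to 81.8 with shRBM10#1 and 77.3 to 78.7 with shRBM10#2, nearly all of it from CD68, and PTPRC, which marks leukocytes, was at most 0.05 TPM. The 3 endothelial markers summed to 6.02 to 7.65 TPM with shScr, 10.3 to 12.7 with shRBM10#1 and 7.30 to 7.52 with shRBM10#2, most of it from CDH5. Their higher sum with shRBM10#1 moves with the results for that shRNA given below, and its part in them was not tested.

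By TPM, which accounts for transcript length, YAP1 was the most abundant of the 10 genes, with a median of 81.8 over the 6 libraries (range 76.97 to 102). AMOTL2 followed at 61.8 TPM (54.9 to 68.3), TEAD4 at 43.7 (41.9 to 48.8), WWTR1 at 33.6 (25.4 to 36.5), TEAD1 at 21.6 (18.6 to 27.3) and CYR61 at 14.5 (13.0 to 16.7). The kinases stood lower, at 6.41 TPM for LATS2 (5.95 to 7.97) and 6.32 TPM for LATS1 (4.77 to 7.84). ANKRD1 at 0.955 TPM (0.31 to 1.5) and CTGF at 0.81 TPM (0.49 to 1.27) were close to the lower limit of the tables, with 14 to 57 and 22 to 60 counts per library. The ranges of WWTR1 and TEAD1, of LATS2 and LATS1, and of ANKRD1 and CTGF overlapped, and other neighbours in this order did not overlap. Thus, the coactivators and TEADs were well measured, whereas ANKRD1 and CTGF, often used as target genes, rested on few reads.

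**Figure D1:**
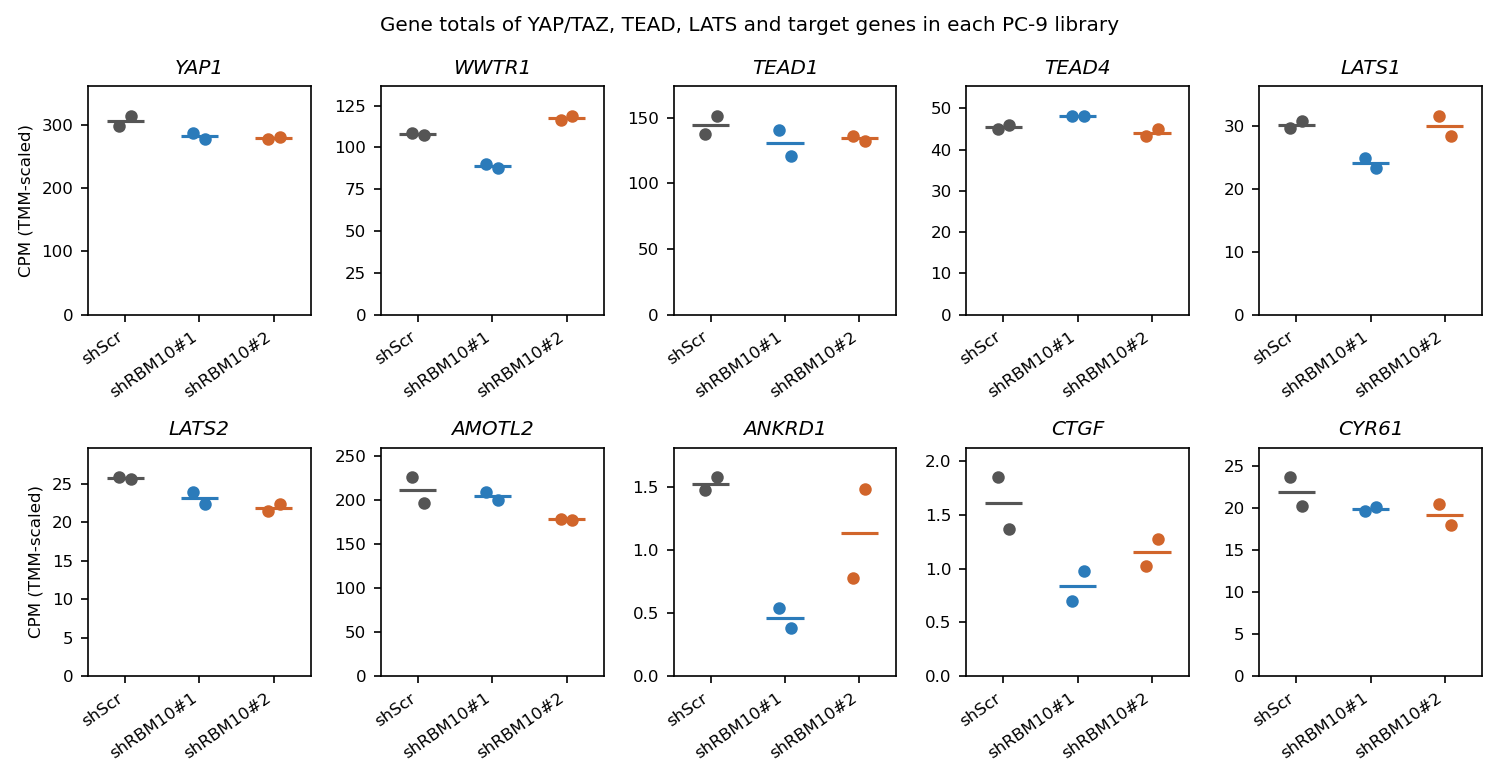
Each panel plots 1 gene, with CPM (TMM-scaled) from 0 on the vertical axis and the 3 conditions on the horizontal axis; points are libraries and horizontal lines are condition means. WWTR1 is lowest with shRBM10#1 and highest with shRBM10#2, LATS1 and ANKRD1 are lowest with shRBM10#1, and the 4 knockdown libraries of YAP1 lie below both shScr libraries.

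The changes in gene totals were next asked of each shRNA relative to shScr. All 10 genes passed the filter on low counts. With shRBM10#1, 3 of the 10 passed an FDR of 0.05 and each was lower (WWTR1, LATS1 and ANKRD1). Among all 14217 genes tested, 14.0% passed in this comparison and 6.91% passed as lower. With shRBM10#2, 2 of the 10 passed and both were lower (LATS2 and AMOTL2), beside 25.9% of all genes in either direction and 13.9% as lower. Both comparisons use the same shScr libraries. The median log2 FC of the 10 genes was −0.15 with shRBM10#1 and −0.16 with shRBM10#2, beside 0.0079 and 0.0054 for all genes tested, and 9 of the 10 estimates were negative with each shRNA. In bulk RNA, fewer cells that express a gene and less RNA per cell cannot be told apart.

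**Figure D2:**
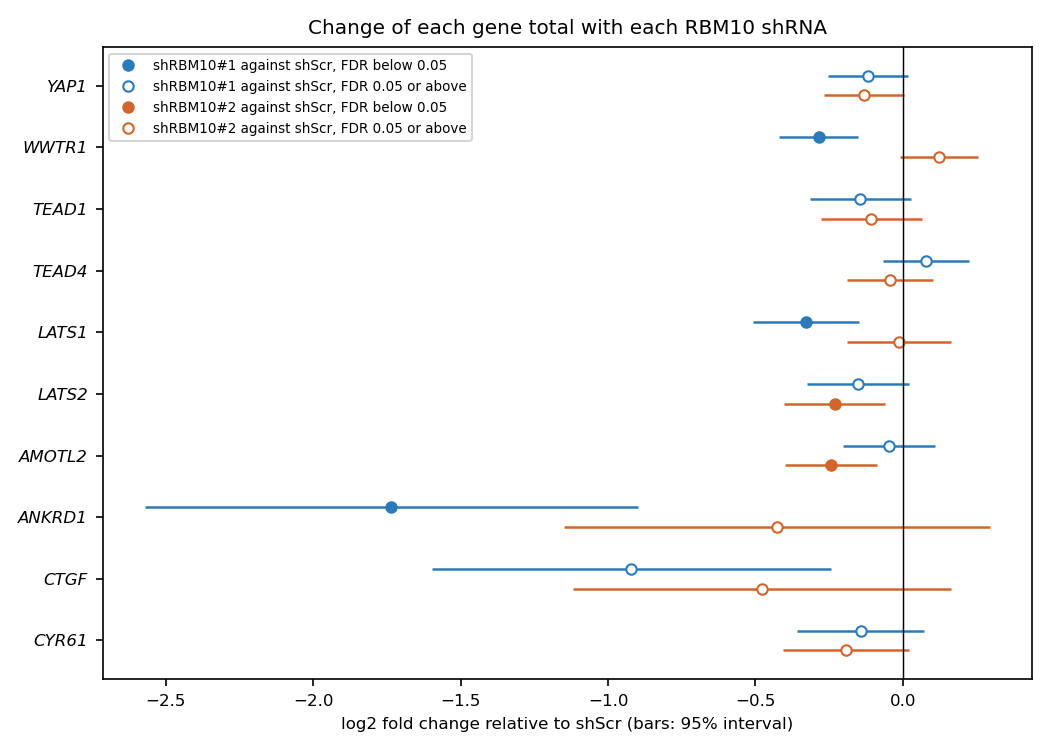
The log2 fold change of each gene total relative to shScr (horizontal axis) is shown for shRBM10#1 (blue) and shRBM10#2 (orange), with bars for the 95% interval; filled points have an FDR below 0.05. ANKRD1 and CTGF have the widest intervals, and the point of WWTR1 lies below 0 with shRBM10#1 and above 0 with shRBM10#2.

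The coactivators behaved differently from each other. YAP1 gave 299 and 315 CPM with shScr, 287 and 278 with shRBM10#1 and 279 and 282 with shRBM10#2. Each knockdown library was below both control libraries, by a small margin. The log2 FC was −0.12 with shRBM10#1 (95% interval −0.25 to 0.017) and −0.13 with shRBM10#2 (−0.27 to 0.0037), and neither passed the test (FDR = 0.24 and 0.142, edgeR). A fall of the YAP1 gene total larger than 0.27 on the log2 scale thus lay outside both intervals.

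WWTR1, which encodes TAZ, was at 108 CPM in both shScr libraries, at 89.9 and 87.5 in those of shRBM10#1 and at 116 and 119 in those of shRBM10#2. The 3 conditions did not overlap, and the shRNAs lay on opposite sides of the control. The fall with shRBM10#1 was −0.29 on the log2 scale (SE 0.0615, FDR = 0.00833, edgeR), a level of 0.821 of the control. With shRBM10#2 the log2 FC was 0.12 (SE 0.0609, FDR = 0.158, edgeR), which did not pass. The difference between the shRNAs was itself tested, and WWTR1 was higher with shRBM10#2 by a log2 FC of 0.41 (SE 0.0612, FDR = 7.93e-04, edgeR). The fall with shRBM10#1 passed in each of the 13 alternative fits, with an FDR of 0.00151 to 0.0394. An antisense gene, WWTR1-AS1, overlaps this locus and had 10 to 17 counts per library beside 2811 to 4554 for WWTR1.

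Neither TEAD1 nor TEAD4 passed the test with either shRNA. TEAD1 gave 138 and 152 CPM with shScr, 141 and 121 with shRBM10#1 and 136 and 132 with shRBM10#2. TEAD4 gave 45.0 and 46.0 CPM with shScr, 48.2 and 48.0 with shRBM10#1 and 43.4 and 44.9 with shRBM10#2. The TEAD1 libraries of shRBM10#1 spanned the lower control, and the TEAD4 libraries of shRBM10#1 were the highest of the 6. The log2 FC of TEAD1 was −0.14 (FDR = 0.262, edgeR) with shRBM10#1 and −0.11 (FDR = 0.353, edgeR) with shRBM10#2. That of TEAD4 was 0.080 (95% interval −0.066 to 0.23, FDR = 0.473, edgeR) and −0.044 (−0.19 to 0.10, FDR = 0.672, edgeR).

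Of the LATS kinases, which phosphorylate and so restrain YAP1 and TAZ, LATS1 passed as lower with shRBM10#1 and LATS2 with shRBM10#2, but only LATS1 differed between the shRNAs by a direct test. LATS1 gave 29.6 and 30.8 CPM with shScr, 24.9 and 23.3 with shRBM10#1 and 31.6 and 28.3 with shRBM10#2. The shRBM10#1 libraries were below all the others, and the shRBM10#2 libraries lay on either side of the controls. The log2 FC was −0.33 (SE 0.0829, FDR = 0.0198, edgeR) with shRBM10#1 and −0.012 (FDR = 0.933, edgeR) with shRBM10#2, and the shRNAs differed by 0.32 (SE 0.0822, FDR = 0.0144, edgeR). The fall with shRBM10#1 no longer passed without shScr replicate 1 (log2 FC −0.355), without shScr replicate 2 (−0.299) or without shRBM10#1 replicate 2 (−0.278). The difference between the shRNAs no longer passed without shRBM10#1 replicate 2 or without shRBM10#2 replicate 1. It ran from 0.234 to 0.399 when 1 library was left out. Here and below, such a fit leaves 1 library in that condition, so a call can be lost without a smaller estimate.

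LATS2 gave 25.8 and 25.6 CPM with shScr, 24.0 and 22.3 with shRBM10#1 and 21.5 and 22.3 with shRBM10#2. All 4 knockdown libraries were below both controls, and the shRNAs overlapped at 22.3 CPM. The log2 FC was −0.23 with shRBM10#2 (SE 0.0796, FDR = 0.0489, edgeR), just inside the threshold, and −0.15 with shRBM10#1 (FDR = 0.236, edgeR). The difference between the shRNAs was −0.079 (95% interval −0.25 to 0.094, FDR = 0.501, edgeR) and did not pass. The call with shRBM10#2 was lost with DESeq2 (adjusted p = 0.103), without a filter on low counts (FDR = 0.0627, edgeR), with an offset for fragment length (FDR = 0.0576, edgeR), under the replicate block (FDR = 0.0754, edgeR) and without either library of shScr or of shRBM10#2 (FDR between 0.11 and 0.294, edgeR).

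AMOTL2, an angiomotin that binds YAP1 and is itself a YAP/TAZ target, gave 226 and 197 CPM with shScr, 209 and 200.2 with shRBM10#1 and 179 and 178 with shRBM10#2. The shRBM10#2 libraries were below all the others, and the shRBM10#1 libraries lay between the controls. The log2 FC was −0.24 with shRBM10#2 (SE 0.0722, FDR = 0.0261, edgeR) and −0.047 under shRBM10#1 (FDR = 0.718, edgeR). The difference of −0.20 between the shRNAs did not pass (FDR = 0.0619, edgeR), although it did with DESeq2 (adjusted p = 0.048). The fall with shRBM10#2 did not pass without shScr replicate 1 (log2 FC −0.143), without shRBM10#2 replicate 1 (−0.249) or without shRBM10#2 replicate 2 (−0.237). Nor did it pass with the length offset and the replicate block together (FDR = 0.05036, edgeR). Without shScr replicate 1, the estimate went from −0.24 to −0.14 with shRBM10#2 and from −0.047 to 0.056 with shRBM10#1.

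ANKRD1, an ankyrin repeat protein of the nucleus and sarcomere, showed the largest change of the 10 genes. It gave 1.48 and 1.58 CPM with shScr (48 and 52 counts), 0.543 and 0.380 CPM under shRBM10#1 (17 and 14 counts) and 0.781 and 1.49 CPM under shRBM10#2 (29 and 57 counts). Both shRBM10#1 libraries were below the other 4, whereas 1 shRBM10#2 library lay in the range of the controls and the other did not. The log2 FC with shRBM10#1 was −1.73 (SE 0.387, 95% interval −2.57 to −0.90, FDR = 0.0101, edgeR), a level of 0.301 of the control. With shRBM10#2 it was −0.43 (95% interval −1.15 to 0.30, FDR = 0.381, edgeR), and the shRNAs differed by 1.31 (SE 0.394, FDR = 0.0284, edgeR). The fall with shRBM10#1 did not pass without shScr replicate 2 (log2 FC −1.69, FDR = 0.0722, edgeR) or without shRBM10#1 replicate 2 (log2 FC −1.49, FDR = 0.0842, edgeR). The difference between the shRNAs did not pass without shRBM10#1 replicate 2 (FDR = 0.144, edgeR) or without shRBM10#2 replicate 2, when it was 0.77 (FDR = 0.333, edgeR), or with the length offset and the replicate block together (FDR = 0.0514, edgeR). The estimate with shRBM10#2 ran from −0.96 to −0.039 when 1 library was left out.

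CTGF and CYR61, secreted matrix proteins of the CCN family, did not pass in any of the comparisons. CTGF gave 1.85 and 1.37 CPM with shScr, 0.703 and 0.977 with shRBM10#1 and 1.02 and 1.28 with shRBM10#2. The 4 knockdown libraries lay below both controls. The log2 FC was −0.92 with shRBM10#1 (95% interval −1.60 to −0.24, FDR = 0.0689, edgeR) and −0.48 under shRBM10#2 (−1.12 to 0.16, FDR = 0.26, edgeR). The first of these passed without a filter on low counts (FDR = 0.0273, edgeR) and when each library had to hold at least 10 counts (FDR = 0.0476, edgeR). CYR61, at 23.7 and 20.2 CPM with shScr, had 19.6 and 20.1 under shRBM10#1 and 20.5 and 18.0 under shRBM10#2. Its groups overlapped for shRBM10#2, its log2 FC was −0.14 and −0.19 (FDR = 0.379 and 0.175, edgeR), and a fall of more than 0.41 on the log2 scale lay outside both 95% intervals. Hence, CYR61, the better measured of the pair, stood near the control level while the low-count CTGF had the larger estimates.

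The shRNAs were also compared directly and as 1 group. Of the 10 genes, 3 differed between shRBM10#2 and shRBM10#1 (WWTR1, LATS1 and ANKRD1), each higher with shRBM10#2, beside 25.5% of all genes in either direction and 11.0% as higher. With the 4 RBM10 KD libraries as 1 group, 0 of the 10 passed by edgeR and 0 by DESeq2, beside 1.62% of all genes by edgeR. An unadjusted p below 0.05 was reached by 2 of the 10 (LATS2 and CTGF), beside 2450 of all 14217 genes tested (edgeR). RBM10 itself did not pass in that comparison (log2 FC −0.99, FDR = 0.146, edgeR). With 1 coefficient per condition in place of the pooled group, ANKRD1 passed (log2 FC −1.08, FDR = 0.0272, edgeR).

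The choice among YAP1 isoforms was then examined, because RBM10 regulates splicing. NM_001130145, which holds the second WW domain exon and exon 6 and lacks the exon 5 extension, was the most abundant in 5 of the 6 libraries. It made up 40.6% and 38.9% of YAP1 TPM with shScr, 24.3% and 31.7% with shRBM10#1 and 34.4% and 40.4% with shRBM10#2. The shRBM10#1 libraries were the lowest, yet they differed from each other by more than the shScr libraries differed from the lower shRBM10#2 library. NM_001195044, which differs from it by the lack of exon 6, ranged from 15.2% to 26.1% and was the most abundant in replicate 1 of shRBM10#1. NM_001282101, with all 3 segments, ranged from 11.7% to 15.3%. Of the isoforms with a single WW domain, NM_001282097, with exon 6 alone, ranged from 6.30% to 18.3%, and NM_006106, with none of the segments, from 4.45% to 10.7%. NM_001282098, with the extension alone, ranged from 1.25% to 5.96%, and NM_001282099, with the extension and exon 6, from 1.77% to 5.43%. NM_001282100, with the WW exon and the extension, ranged from 2.78% to 6.93%. NM_001195045, which starts at another exon, stayed between 0.30% and 2.26%. The lengths of the other 8 isoforms in the tables matched the sum of their segments exactly.

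None of the 9 YAP1 isoforms met the criteria of an FDR below 0.05 and an absolute log2 FC above 1 in any comparison by edgeR. The numbers at an unadjusted p below 0.05 were 2 with shRBM10#1, 1 with shRBM10#2 and 2 between the shRNAs (edgeR). Over all 26464 isoforms tested, they were 3832, 5699 and 5377. Among all 26464 isoforms tested, 0.0227%, 0.491% and 0.359% met the criteria in these comparisons by edgeR. DESeq2 called 1 YAP1 isoform by both criteria, with shRBM10#2. At an FDR below 0.05 alone, DESeq2 gave 1 with shRBM10#1, 1 with shRBM10#2 and 2 between the shRNAs. The share of all isoforms called by DESeq2 was not computed, so these counts have no background beside them. The estimate for NM_001130145 was −0.62 under shRBM10#1 (log2 FC, SE 0.135, FDR = 0.142, edgeR) and −0.21 under shRBM10#2 (FDR = 0.438, edgeR). NM_001282097, with a single WW domain, was furthest from the control with shRBM10#1, at 0.91 (log2 FC, SE 0.341, FDR = 0.32, edgeR). With shRBM10#2 its estimate was 0.40 (FDR = 0.584, edgeR). NM_001282098, the isoform furthest from the control with shRBM10#2, had an estimate of −1.52 (log2 FC, SE 0.45, FDR = 0.138, edgeR). A test of isoform usage asks whether isoforms of 1 gene change relative to each other. For YAP1 with shRBM10#1 it gave an unadjusted Simes p of 0.0316 over the YAP1 isoforms and an FDR of 0.657 (edgeR). The FDR was 1 with shRBM10#2 and between the shRNAs (edgeR). In the 6405 genes tested for usage, 0.172%, 2.75% and 1.92% passed. Of the 10 genes, the 5 with at least 2 isoforms past the filter (YAP1, WWTR1, TEAD4, LATS1 and AMOTL2) did not pass in any comparison. The same held in each alternative in which they were tested, but only 2 of the 5 could be tested once isoforms below 5% of their gene were left out.

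RSEM divides reads among isoforms that share most of their sequence, and the shares were therefore also summed over the isoforms that hold each of the 3 segments. This way of grouping the isoforms was chosen after their values had been seen. The exon of the second WW domain was held by 76.9% and 77.8% of YAP1 TPM with shScr, 71.9% and 73.9% with shRBM10#1 and 75.4% and 76.4% with shRBM10#2. The 4 knockdown libraries were below both controls. The pooled difference was −2.95 percentage points (exact permutation test over 15 splits, two-sided, p = 0.133). This is not the smallest p that 4 against 2 libraries can give, because another split of the libraries gave a larger difference. Exon 6 was held by 64.1% and 64.7% with shScr, 61.1% and 60.6% with shRBM10#1 and 66.8% and 65.8% with shRBM10#2. The 3 conditions did not overlap, with shRBM10#1 lowest and shRBM10#2 highest, and the shRNAs differed by 5.51 points (exact permutation test, two-sided, p = 0.333, the smallest that 2 against 2 libraries can give). The extension of exon 5 was held by 26.9% and 23.6% with shScr, 26.2% and 26.0% with shRBM10#1 and 25.3% and 24.9% with shRBM10#2, so that both shRNAs lay inside the spread of the controls. The sums rest on the model of RSEM, and only reads that cross a segment or its junctions inform them.

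**Figure D3:**
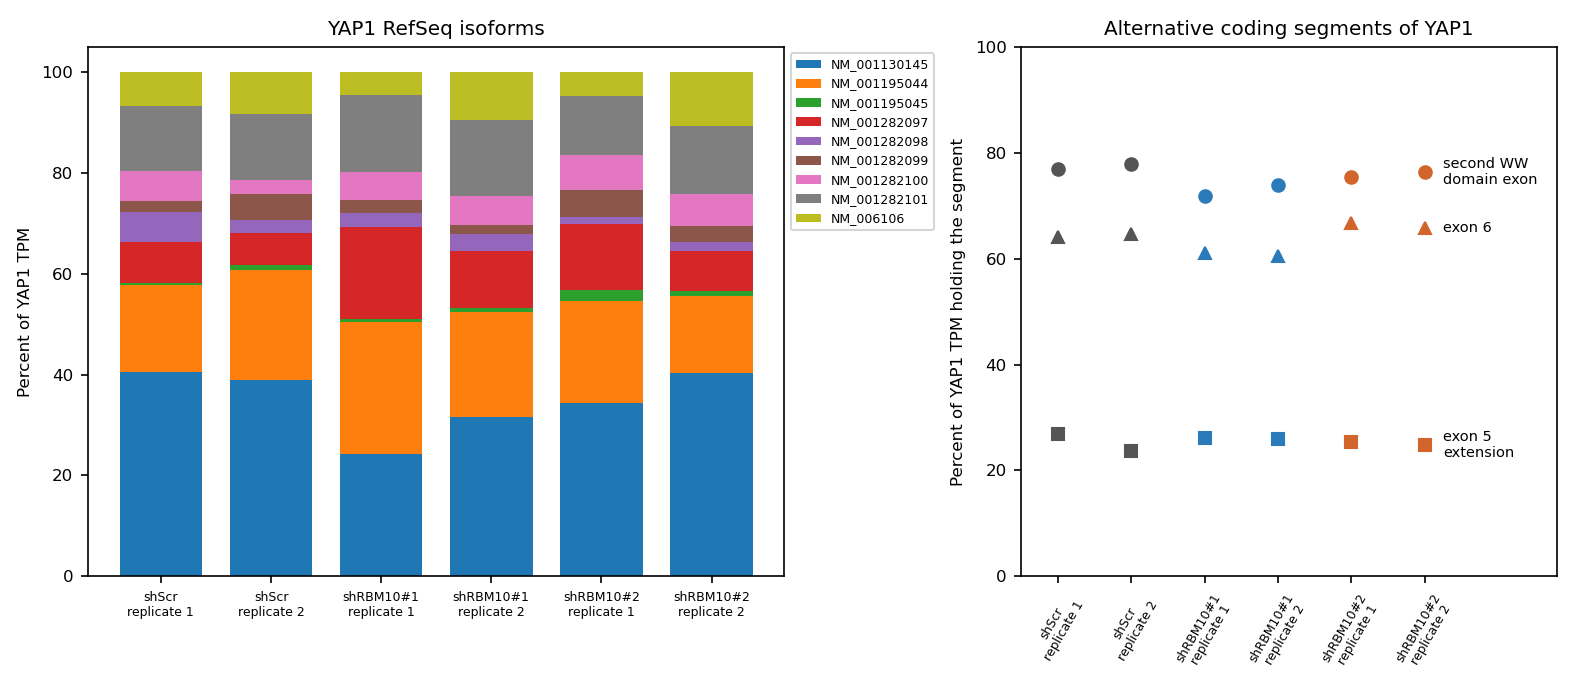
Left, the share of YAP1 TPM (percent, vertical axis) given by each of the 9 RefSeq isoforms in each library; right, the percent of YAP1 TPM that holds each alternative segment, with 1 point per library coloured by condition. The isoform shares vary between replicates, with NM_001130145 between 24.3% and 40.6%, while the exon 6 share stays between 60.6% and 66.8% and is lowest with shRBM10#1.

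To place the 10 genes in their pathway, 37 other Hippo and YAP/TAZ genes were read from the same fit, of which 36 passed the filter and RBMS3 did not. With each shRNA, 1 of the 36 was higher and 9 were lower, and the medians were −0.10 with shRBM10#1 and −0.099 with shRBM10#2. The calls were a larger share with shRBM10#1 than the 14.0% of all genes and close to the 25.9% with shRBM10#2. The lists were chosen with earlier results of these data known, so their shares and medians, here and below, are descriptions. The part of that choice in them was not tested. Between the shRNAs 5 were higher and 5 lower, close to the share of all genes called there, 25.5%. In the pooled comparison 0 were higher and 3 lower (NT5E, GADD45A and, named after its value was seen, CCDC80), beside 1.62% of all genes. In the alternative fits that kept all libraries, the 10 calls became 8 to 12 with shRBM10#1 and 9 to 10 with shRBM10#2. Over all genes, 1315 to 2589 and 2531 to 4162 passed in those fits, beside 1996 and 3685 in the main fit. Between the shRNAs the 10 calls became 6 to 12, beside 2536 to 4114 over all genes (3628 in the main fit). These calls were fewer with some libraries left out, and so were those over all genes. The 3 pooled calls became 6 with DESeq2, 13 with 1 coefficient per condition and 0 without either shScr library. The pooled call of GADD45A (FDR = 0.0474, edgeR) was lost in 7 of 14 alternatives, namely with the replicate block, the length offset or both, and without either library of shScr or of shRBM10#1 (FDR between 0.0533 and 0.416, edgeR).

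**Figure D4:**
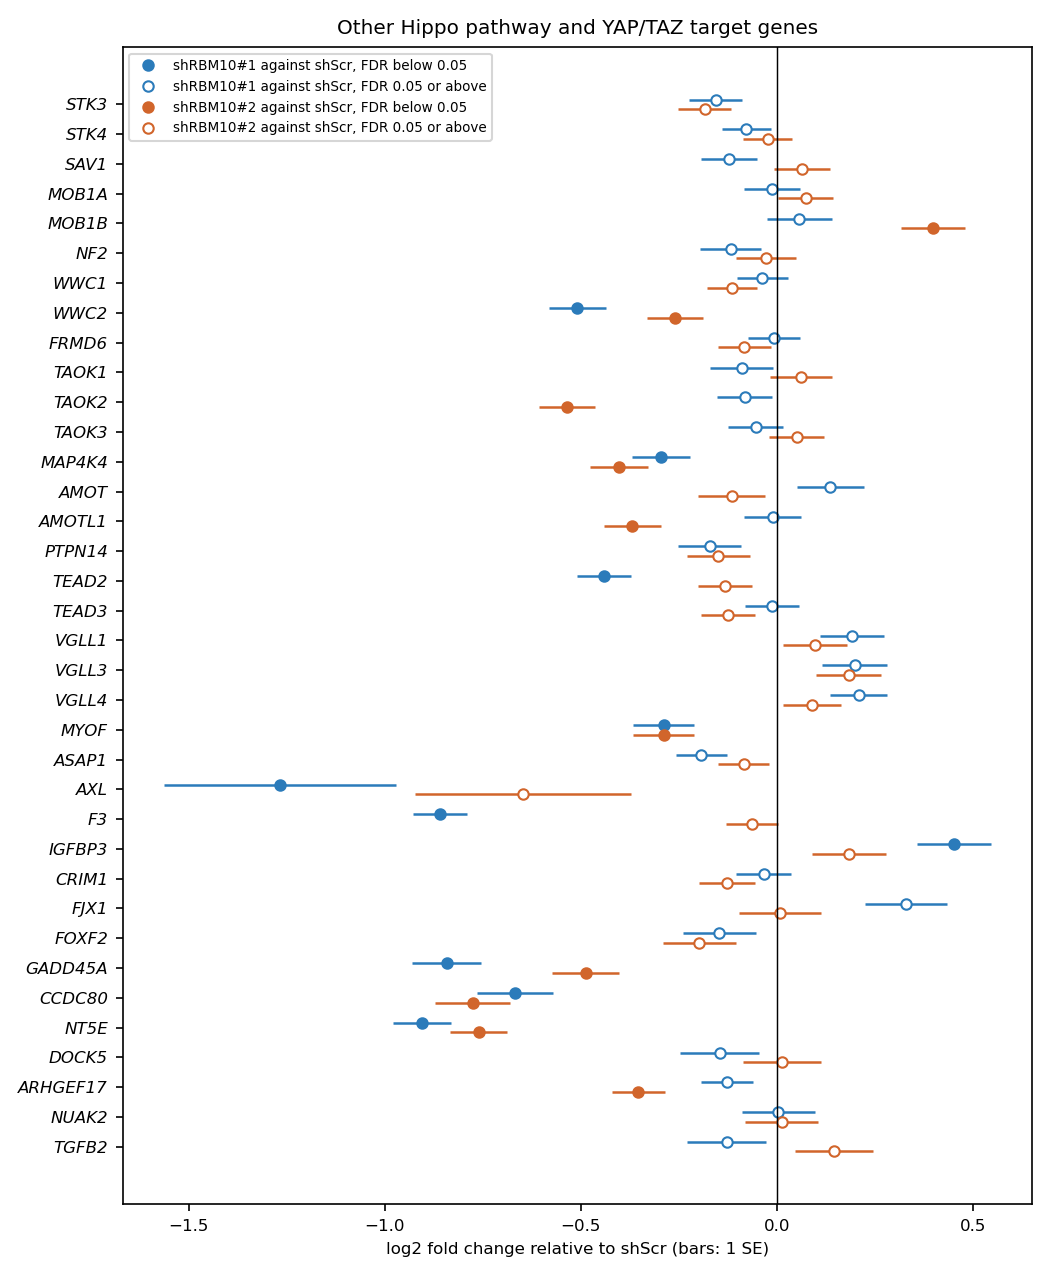
The log2 fold change relative to shScr (horizontal axis) is shown for the 36 other pathway and target genes past the filter, with shRBM10#1 in blue, shRBM10#2 in orange, bars for 1 SE and filled points for an FDR below 0.05. Most points lie within 0.3 of 0, and NT5E, GADD45A, CCDC80, F3 and AXL are furthest to the left with shRBM10#1.

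Among 13 core kinases and activators, 0 rose and 2 fell with shRBM10#1, and 1 rose and 3 fell with shRBM10#2. For this list and those below, the shares of all genes called were 14.0% with shRBM10#1 and 25.9% with shRBM10#2. As lower, they were 6.91% and 13.9%. TAOK2, a kinase upstream of the Hippo kinases, gave 86.8 and 90.2 CPM with shScr, 88.0 and 79.3 with shRBM10#1 and 59.7 and 62.5 with shRBM10#2. It fell by 0.53 on the log2 scale with shRBM10#2 (SE 0.0714, FDR = 4.55e-04, edgeR), and its log2 FC with shRBM10#1 was −0.082 (FDR = 0.485, edgeR). WWC2, a scaffold related to KIBRA that activates LATS kinases, gave 49.8 and 50.2 CPM with shScr, 36.7 and 33.7 with shRBM10#1 and 42.8 and 40.8 with shRBM10#2. It was lower with both shRNAs, by −0.51 (FDR = 6.19e-04, edgeR) and −0.26 (FDR = 0.0199, edgeR), and the latter did not pass when any 1 of the shScr or shRBM10#2 libraries was left out (FDR between 0.0619 and 0.211, edgeR). MAP4K4, a kinase that can activate LATS kinases directly, gave 187 and 204 CPM with shScr, 149 to 170 CPM with shRBM10#1 and 148 CPM in both shRBM10#2 libraries. Its log2 FC was −0.30 (FDR = 0.0195, edgeR) and −0.40 (FDR = 0.00255, edgeR), and the first did not pass without shScr replicate 2 (FDR = 0.149, edgeR), without shRBM10#1 replicate 2 (FDR = 0.109, edgeR) or without shRBM10#2 replicate 1 (FDR = 0.051, edgeR). The single rise was that of MOB1B, a LATS cofactor, named after its value was seen, with 19.5 and 20.6 CPM with shScr and 26.4 and 26.5 CPM with shRBM10#2 (log2 FC 0.40, FDR = 0.00414, edgeR), a call lost without shRBM10#2 replicate 2 (FDR = 0.0563, edgeR).

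Of 3 cytoplasmic binders of YAP and TAZ, 0 passed with shRBM10#1 and 1 fell with shRBM10#2. This was AMOTL1, a paralog of AMOTL2, with 167 and 183 CPM with shScr, 183 and 165 with shRBM10#1 and 138 and 133 with shRBM10#2 (log2 FC −0.37, SE 0.0728, FDR = 0.00357, edgeR). The shRBM10#2 libraries were below the other 4, as for AMOTL2, and the fall did not pass without shRBM10#2 replicate 2 (FDR = 0.0739, edgeR). Of 5 other TEAD genes and TEAD cofactors, 1 fell with shRBM10#1 and 0 passed with shRBM10#2. TEAD2 gave 44.7 and 43.5 CPM with shScr, 32.7 and 32.3 with shRBM10#1 and 39.3 and 41.2 with shRBM10#2. Its log2 FC was −0.44 with shRBM10#1 (SE 0.0701, FDR = 0.00123, edgeR) and −0.13 under shRBM10#2 (FDR = 0.182, edgeR), with an offset of 0.31 between the shRNAs (FDR = 0.00707, edgeR).

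Among 17 other YAP/TAZ target genes, 16 were tested, of which 1 rose and 6 fell with shRBM10#1, and 0 rose and 5 fell with shRBM10#2. Of all genes tested, 14.0% and 25.9% were called, and 6.91% and 13.9% were called as lower. The medians of the list were −0.16 and −0.14, beside 0.0079 and 0.0054 for all genes. NT5E, the ecto-enzyme CD73 that makes adenosine, gave 82.9 and 83.9 CPM with shScr, 47.1 and 42.1 with shRBM10#1 and 47.9 and 50.6 with shRBM10#2. It was lower with both, by −0.90 (SE 0.0739, FDR = 1.55e-05, edgeR) and −0.76 (SE 0.0732, FDR = 8.07e-05, edgeR), and the 4 knockdown libraries were far below the controls. GADD45A, a stress-response gene also induced by p53, gave 34.2 and 30.5 CPM with shScr, 18.6 and 17.5 with shRBM10#1 and 23.8 and 22.3 with shRBM10#2 (log2 FC −0.84 and −0.49, FDR = 6.86e-05 and 0.00186, edgeR). The 3 conditions did not overlap for GADD45A.

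F3, tissue factor, which starts the coagulation cascade, moved with shRBM10#1 and not detectably with shRBM10#2. It gave 110 and 116 CPM with shScr, 65.2 and 59.5 with shRBM10#1 and 108 CPM in both shRBM10#2 libraries. The log2 FC was −0.86 with shRBM10#1 (SE 0.0684, FDR = 1.37e-05, edgeR) and −0.063 under shRBM10#2 (FDR = 0.53, edgeR), and the shRNAs differed by 0.80 (SE 0.0683, FDR = 4.40e-05, edgeR). AXL, a receptor tyrosine kinase known in resistance to EGFR inhibitors, was low in these cells, at 1.82 and 2.46 CPM with shScr, 1.09 and 0.706 with shRBM10#1 and 1.37 and 1.36 with shRBM10#2. It was lower with shRBM10#1 (log2 FC −1.27, SE 0.297, FDR = 0.0131, edgeR), a call that was lost without shScr replicate 2 (FDR = 0.124, edgeR) and without shRBM10#1 replicate 2 (FDR = 0.102, edgeR). With shRBM10#2 its log2 FC was −0.65 (FDR = 0.104, edgeR). The single rise was that of IGFBP3, named after its value was seen, which binds insulin-like growth factors and had a log2 FC of 0.45 with shRBM10#1 (FDR = 0.00672, edgeR), a call lost without shScr replicate 2 (FDR = 0.0652, edgeR).

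ANKRD1 had the widest range of condition means among the 10 genes, 1.63 on the log2 scale, and the genes whose log2 CPM followed it most closely were sought among 1088 genes with at least 50% of that range. The 5 closest were SAMD5 (Pearson r = 0.993), TMEM156 (0.974), MXRA7 (0.971), LOC440028 (0.970) and MPP1 (0.968), over 6 libraries that all of these genes share. SAMD5 gave 0.832 and 0.820 CPM with shScr, 0.384 and 0.271 with shRBM10#1 and 0.512 and 0.731 with shRBM10#2. MPP1, a membrane scaffold of red cells, gave 9.30 and 11.3 CPM with shScr, 5.02 and 3.45 with shRBM10#1 and 6.52 and 8.07 with shRBM10#2. In both, as in ANKRD1, shRBM10#1 was lowest and replicate 1 of shRBM10#2 lay below its replicate 2. This shared order follows from picking them by r with ANKRD1 over the same libraries. SAMD5 and LOC440028 (0.136 to 0.425 CPM) were also low in all libraries. With 1088 genes ranked over 6 libraries, high values of r arise readily, so these serve as a description.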

How the data were processed

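RNA was sequenced from 6 PC-9 libraries. Per the labels, the submitters' processing notes name STAR 2.4, RSEM 1.2.29 and edgeR with build hg19. The authors deposited RSEM expected counts per RefSeq isoform, which need not be whole because shared reads are split, together with TPM and the percent of each gene given by each isoform. FPKM was not used here. Effective length, also deposited, was used as an offset. The strand protocol is not given in the sources used here. Nothing says that libraries of a condition came from separate cultures, so tests measure the spread between libraries, which may be technical. Replicates differed by more than sampling noise (chi-square per degree of freedom 3.22 to 12.2).

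Expected counts were summed per gene, rounded and tested with edgeR 4.0.16 in R 4.3.3 (quasi-likelihood, TMM, filterByExpr by condition, Benjamini-Hochberg over all features, two-sided), with 1 coefficient per condition. A gene was called at an FDR below 0.05, and an isoform at an absolute log2 FC above 1 as well, the criteria of the methods. The SE was the log2 FC divided by the square root of F. Isoform usage was tested with diffSpliceDGE (Simes). DESeq2 1.42.0 and limma 3.58.1 served as alternatives, and the scripts were tested on simulated data. Python 3.11.15 and matplotlib 3.10.9 were also used. Coordinates are from GENCODE 29 or RefSeq and were not converted from hg19. Over genes, the deviations of same-numbered libraries from their condition means were nearly uncorrelated (−0.00383, −0.0193 and −0.0136). The labels do not say whether the replicate numbers pair the libraries.

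Genes were named by rule: the 10 genes, each YAP1 isoform, at most 3 called genes per pathway list by smallest FDR, any other pathway gene with condition means over 2-fold apart, RBM10, and the 5 genes closest to ANKRD1. The members and lists were chosen with earlier results of these data known. Alternatives were DESeq2, its size factors, other filters, the replicate block, the length offset, the fold criterion and each library left out. Other percentages, TPM sums and marker lists are descriptions without a test.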

Additional observations from a re-analysis of the deposited data

Results flagged for a closer look

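The effect relative to shScr differed between the shRNAs, by the test of shRBM10#2 against shRBM10#1, in 3 of the 10 genes and in 7 of the other genes named. Over all genes tested, 25.5% passed in that test. The other genes were named by their calls, by their range of condition means or after their values were seen. Their number is therefore no share to set beside that of all genes. Of the 36 other pathway genes tested, 5 were higher and 5 lower. WWTR1 was higher with shRBM10#2 by a log2 FC of 0.41 (FDR = 7.93e-04, edgeR), LATS1 by 0.32 (FDR = 0.0144, edgeR) and ANKRD1 by 1.31 (FDR = 0.0284, edgeR). In these genes the libraries with the deeper RBM10 knockdown were nearer to the control than those with the weaker knockdown, or, for WWTR1, on its other side.

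Of the other genes, F3 was higher with shRBM10#2 by 0.80 (FDR = 4.40e-05, edgeR), GADD45A by 0.35 (FDR = 0.0115, edgeR), MOB1B by 0.34 (FDR = 0.00881, edgeR), TEAD2 by 0.31 (FDR = 0.00707, edgeR) and WWC2 by 0.25 (FDR = 0.025, edgeR). TAOK2 was lower with shRBM10#2, with a log2 FC of −0.45 (FDR = 0.00103, edgeR), and AMOTL1 likewise with −0.36 (FDR = 0.00413, edgeR). In the 13 alternative fits, these differences passed each time for WWTR1, F3 and TAOK2 (FDR up to 0.0273, 0.00165 and 0.028, edgeR or DESeq2). They failed in at least 1 fit with a library left out for ANKRD1, LATS1, WWC2, GADD45A, TEAD2, MOB1B and AMOTL1 (FDR up to 0.333, 0.203, 0.224, 0.126, 0.107, 0.0874 and 0.0842, edgeR). No group holds enough libraries for a test of single outlying samples.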

How the results depend on the processing

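Of the 10 genes, 3 were called with shRBM10#1, and the number changed when 1 library was left out. The fold criterion left 1 (ANKRD1). Over all genes, 1996 were called with shRBM10#1, and 1315 to 2589 in the alternative fits that kept all libraries. All genes were not counted under the fold criterion. With shRBM10#2, 2 of the 10 were called, and 1 with DESeq2, without a filter, with the replicate block and with the length offset. With offset and replicate block together 0 were called, and 0 with the fold criterion. Both calls were lost in some fits with 1 library left out. Over all genes, 3685 were called with shRBM10#2, and 2531 to 4162 in the alternative fits that kept all libraries. Between the shRNAs, 3 were called, 1 with the fold criterion and 1 to 4 with 1 library left out. In the pooled comparison 0 were called, 1 with 1 coefficient per condition and 0 with each library left out. The replicate block gave 3 and 3 calls with shRBM10#1 and between the shRNAs, and it ended no other call of the 10 genes than that of LATS2. Same-numbered libraries did not deviate together over genes, and the labels do not say whether the numbers pair them. DESeq2 called 1 YAP1 isoform with shRBM10#2, and its share of calls over all isoforms was not computed. Isoform calls were not repeated with libraries left out.

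Direction turned for estimates near 0 that had not been called, each time from leaving out 1 library. With shRBM10#1, AMOTL2 ran from −0.141 to 0.056 (above 0 without shScr replicate 1) and AMOTL1 from −0.088 to 0.065, with 0.058 without shScr replicate 2. With shRBM10#2, LATS1 ran from −0.092 to 0.067, with 0.016 without shScr replicate 2. Between the shRNAs, YAP1 ran from −0.039 to 0.009, TEAD1 from −0.072 to 0.15 and CYR61 from −0.147 to 0.049. In the pooled comparison, WWTR1 ran from −0.143 to 0.006 and TEAD4 from −0.002 to 0.048. The cause was not tested. Of 1219 repeated estimates of the genes named, 1124 kept direction and side of the threshold, 59 fell short of it, 25 passed it anew and 11 turned. Over all genes, the pooled comparison called 230, 718 with DESeq2, 52 with the replicate block, 2610 with 1 coefficient per condition and 0 without either shScr library. Depth limits ANKRD1 and CTGF, at 14 to 60 counts per library.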

Other observations

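VGLL1, a cofactor that binds TEAD factors through a motif like that of YAP1, had a higher TPM than YAP1 in each library. It ranged from 212 to 246 TPM, beside 76.97 to 102 TPM for YAP1, and was singled out after its values were seen. Its log2 FC was 0.19 with shRBM10#1 (FDR = 0.14, edgeR) and 0.098 with shRBM10#2 (FDR = 0.411, edgeR). VGLL3, of the same family, stood at 3.13 to 4.0 TPM. MYOF, a membrane repair protein and YAP/TAZ target, ranged from 121 to 194 TPM and was lower with both shRNAs, by −0.29 and −0.29 (FDR = 0.0275 and 0.0174, edgeR). CCDC80, a matrix protein, was lower with both as well, by −0.67 and −0.78 (FDR = 6.24e-04 and 2.96e-04, edgeR). These were also named after their values were seen.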
